A study of Mus musculus with 9 samples.

Results

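The 50 genes described here carry fatty acids through the cell: the peroxisome proliferator-activated receptors (PPARs) and their coactivator, acyl-CoA thioesterases and synthetases, the carnitine shuttle, mitochondrial and peroxisomal beta-oxidation, lipid droplet proteins and lipases, fatty acid uptake and binding proteins, and the enzymes of fatty acid synthesis, desaturation and elongation. They were taken by gene symbol from a set list, and all 50 were found among the 23329 rows of the count table. Polyadenylated RNA of pancreatic islets from male mice had been sequenced in 4 control libraries, whose genotype label is Pdx1+/-, and 5 mutant libraries, whose genotype label is Pdx1A4. Pdx1 is a transcription factor of beta cells, and the labels do not say which change the name Pdx1A4 stands for, whether the mutant libraries also lack a copy of Pdx1, or how old the mice were. No treatment is labelled. The labels do not tie the libraries to separate animals, so p-values here measure the spread between libraries, which may be technical.

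Cells store fatty acids as triglyceride in lipid droplets, which perilipins coat and lipases empty. Acyl-CoA synthetases activate the freed acids, the carnitine shuttle brings them into mitochondria, and beta-oxidation shortens them step by step, passing electrons to the respiratory chain through the electron transfer flavoprotein. PPARs are nuclear receptors that bind fatty acids and, paired with a retinoid X receptor, switch on genes of oxidation and storage. Beta cells normally send most of their glucose carbon to the mitochondria. Citrate that leaves them is split by ATP citrate lyase into the acetyl-CoA from which malonyl-CoA is made, and malonyl-CoA inhibits the first step of the carnitine shuttle.

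The libraries held 6092010 to 9163253 counts, and the 50 genes took 0.442 to 0.668% of the counts in controls and 0.396 to 0.463% in mutants. These shares largely follow 1 gene, Acly. It held 15834 to 28159 of the 32202 to 46893 counts of the 50 genes in controls. In mutants it held 1104 to 11070 of 31997 to 37167. The shares therefore do not show the direction of the other genes. Pdx1 itself was measured at 23.8 to 36 CPM, that is, counts scaled for library size, in controls and at 4.18 to 19.9 CPM in mutants. The mean log2 CPM of the 30 tested of 31 genes of endocrine exocytosis was 6.79 to 7.24 in controls and 6.03, 1.82, 4.13, 5.59 and 5.65 in mutants 1 to 5. Mutants 2 and 3 thus stood apart, with the lowest endocrine levels. Of these 30 genes 11 fell and 0 rose. The summed level of 18 beta cell genes was 109259 to 181959 CPM in controls and 871 to 62621 CPM in mutants, and 5 of its 17 tested genes fell while 0 rose. In the other direction, 28 of 30 genes of pancreatic acinar cells rose, and their sum went from 25100 to 58219 CPM in controls to 146019 to 337184 CPM in mutants. Of 15 tested duct genes 7 rose and 1 fell, with sums of 4829 to 13707 CPM and 17934 to 30559 CPM. In bulk RNA, fewer cells of a type and less RNA per cell cannot be told apart. The part that this difference in cell type markers takes in the results below was not tested apart from the fits with a marker score given beside them.

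Markers of other lipid-rich or lipid-handling cells were also read. Of 10 adipocyte markers, Adipoq, Cfd, Lep, Plin1, Adrb3 and Adig had no count in any of the 9 libraries, and the list summed to 5.33 to 7.49 CPM in controls and 1.82 to 9.32 CPM in mutants. Of 4 tested hepatocyte markers 2 fell and 0 rose, with sums of 45.8 to 119.6 CPM and 16.2 to 71.8 CPM, and Cyp3a11 was at 0 throughout. Macrophage markers summed to 89.6 to 475 CPM and 322 to 568 CPM, with 0 of 11 called in either direction. A sum follows the most abundant markers. The mean log2 CPM of the 11 was lower on average in mutants, 0.513 to 3.57 (mean 1.91) against 2.18 to 3.31 (mean 2.63) in controls. Endothelial markers summed to 61.8 to 208 CPM and 8.90 to 117 CPM, with 0 of 10 called. Stellate and fibroblast markers summed to 64.4 to 129 CPM and 3.10 to 199.5 CPM, with 0 of 10 higher and 2 lower.

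More of the fatty acid genes were higher in the mutant libraries than lower. Of the 49 that could be tested, 26 rose (53.1%, against 20.6% of all 12402 genes tested) and 4 fell (8.16%, against 11.8%), by edgeR's quasi-likelihood test at an adjusted p under 0.05 over all genes, of which 32.4% were called in either direction. The median log2 fold change was 0.81 over these 49 genes and 0.04 over all genes. Acot3, a peroxisomal thioesterase, had at most 5 counts in any library and was not tested. The genes that rose were those of lipid droplets and lipolysis (6 of 6), mitochondrial beta-oxidation (8 of 10), peroxisomal beta-oxidation (3 of 3) and the carnitine shuttle (2 of 4), with 7 more in the other groups. The 4 that fell were Acly, Scd2, Elovl5 and Acsl3, which act in fatty acid synthesis, desaturation, elongation and activation. Other genes of these roles rose: Acacb in synthesis, Scd1 in desaturation, and Acsl1 and Acsl5 in activation. The PPARs and the coactivator Ppargc1a did not pass the test.

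The 4 control and 5 mutant values did not overlap in 24 genes that were higher and 4 that were lower, against 18.5% and 14.7% of all genes tested (33.2% in either direction). Among the 26 genes that rose, 23 were higher in every mutant library than in any control. In 18 of the 26, mutants 2 and 3 were the highest 2 mutant libraries, and in 23 of them mutant 1 was the lowest. DESeq2 called 27 of the genes higher and 6 lower, against 17.5% and 17.8% of all genes it tested (35.3% in either direction), and limma-voom called 29 and 5, against 24.3% and 18.5% (42.8%). With the replicate number as a block edgeR called 25 and 3, against 13.4% and 6.24% (19.6%). When mutants 2 and 3 were left out, 20 of the genes still rose (against 10.8% of all genes) and 3 fell (against 9.78%). With the endocrine score of each library as a covariate, 6 genes remained called higher, Plin2, Plin3, Pnpla2, Angptl4, Fabp5 and Acacb (against 3.27% of all genes), and 0 lower (against 0.411%). The group explains 51.5% of the variance of this score, and every mutant score (1.82 to 6.03) lay below every control score (6.79 to 7.24). Group and endocrine score can therefore be told apart only in part. In that fit 25 of the 49 had an unadjusted p under 0.05, against 2682 of all 12402 genes. All 26 genes that had risen kept a positive fold change there. With the acinar score as covariate, of which the group explains 92.8% of the variance, edgeR called 0 of all genes, with 528 genes and 3 of the 49 at an unadjusted p under 0.05, and group and acinar score cannot be told apart.

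**Figure D1:**
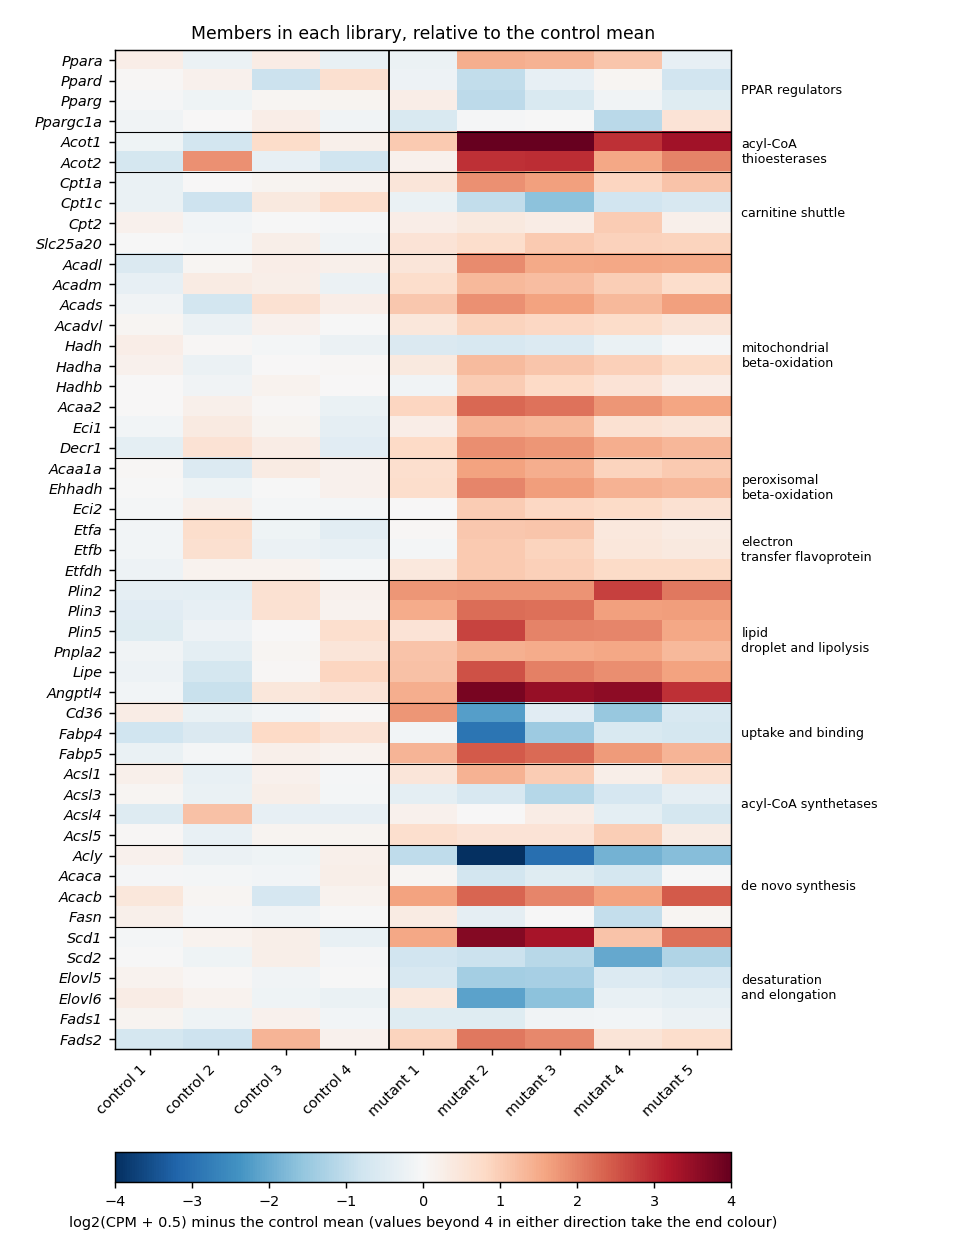
Level of each of the 49 tested genes in the 9 libraries, as log2(CPM + 0.5) minus the mean of the 4 controls, with the genes grouped by role and the colour capped at 4 in either direction. Of the 26 genes that rose, 23 are above every control in all 5 mutants, and in 18 of the 26 mutants 2 and 3 are the highest 2, while Acly, Scd2, Elovl5 and Acsl3 are lower.

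**Figure D2:**
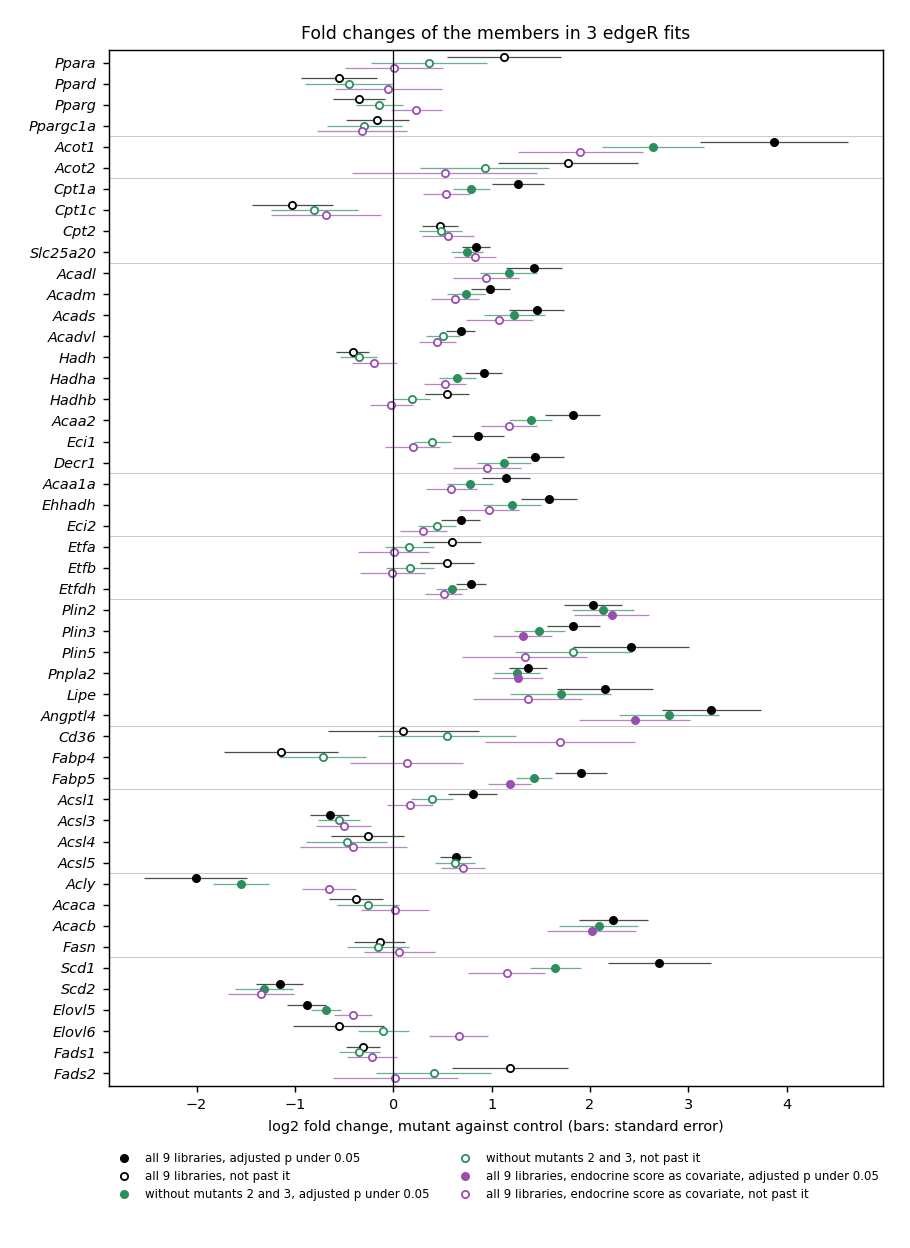
Log2 fold change of mutant against control with its standard error for the 49 tested genes in 3 edgeR fits: all 9 libraries, without mutants 2 and 3, and with the endocrine score as covariate. Filled points have an adjusted p under 0.05, and they number 26 higher and 4 lower, 20 higher and 3 lower, and 6 higher and 0 lower in the 3 fits.

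The receptors themselves were measured at low levels and differed by less than the test required. Ppara, the PPAR best known for driving fatty acid oxidation in liver, stood at 1.23, 0.732, 1.29 and 0.671 CPM in controls 1 to 4 and at 0.727, 3.5, 3.34, 2.63 and 0.669 CPM in mutants 1 to 5. Mutants 2, 3 and 4 were above all controls and mutants 1 and 5 were within or below them, and the log2 fold change of 1.13 (SE 0.58) had an adjusted p of 0.152 in edgeR. Pparg, the receptor of adipocyte formation, was at 12.7, 11.7, 14.1 and 14.3 CPM in controls and at 15.9, 6.07, 8.49, 12 and 9.37 CPM in mutants. These ranges overlapped, with mutants 2 and 3 lowest, and the log2 fold change was -0.35 (SE 0.26, adjusted p = 0.318 in edgeR). Ppard, the widely expressed PPAR, was at 4.1, 4.54, 1.99 and 6.48 CPM in controls and 3.39, 1.75, 3.03, 4.24 and 2.14 CPM in mutants, again overlapping (log2 fold change -0.55, SE 0.39, adjusted p = 0.285 in edgeR). Ppargc1a, a coactivator of PPARs and of mitochondrial genes, was at 9.43, 10.7, 12.9 and 9.50 CPM in controls and 6.66, 10.1, 10.3, 4.68 and 15.7 CPM in mutants. Its groups overlapped on both sides (log2 fold change -0.16, SE 0.32, adjusted p = 0.711 in edgeR).

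Acyl-CoA thioesterases split acyl-CoA into free acid and coenzyme A, Acot1 in the cytosol and Acot2 in mitochondria. Acot1 (chromosome 12, 84009490 to 84018371, plus strand, GRCm38) had the largest rise among the 50 genes. It was at 5.47, 3.51, 10.5 and 7.15 CPM in controls and at 13.3, 207, 153, 50.3 and 68.6 CPM in mutants. Every mutant library was above every control, with mutants 2 and 3 far above the rest and mutant 1 close to the highest control. The log2 fold change was 3.87 (SE 0.75, adjusted p = 0.00609 in edgeR), 2.64 without mutants 2 and 3 (adjusted p = 0.0115) and 1.90 with the endocrine score (adjusted p = 0.12). Acot2 (chromosome 12, 83987861 to 83993873, plus strand) was at 12.3, 74.2, 16.3 and 11.7 CPM in controls and 23.0, 159, 164, 61.0 and 82.3 CPM in mutants. Control 2 lay within the mutant range, and the log2 fold change of 1.77 (SE 0.71) had an adjusted p of 0.079 in edgeR. Without control 2 the log2 fold change of Acot2 was 2.77 and passed the test (adjusted p = 0.0175), as it did with all libraries in DESeq2 (1.69, adjusted p = 0.0321), in limma-voom (2.49, adjusted p = 0.00654) and with the replicate block (1.92, adjusted p = 0.0402). Without mutants 2 and 3 it was 0.93 (adjusted p = 0.338). Per kilobase of exon, the mean level of Acot1 was 2.94 CPM in controls and 43.3 CPM in mutants, and that of Acot2 was 13 and 44.5 CPM.

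Acot1 and Acot2 are neighbours on the chromosome with nearly the same coding sequence, so reads of each can be hard to assign. Their coding sequences, from the GENCODE M21 transcripts on GRCm38, were 95.3% identical over 1236 aligned bases, and 41.4% of aligned windows of 60 bases held no difference. Of all 50-base windows of the Acot1 transcript, 23.7% also occurred in that of Acot2. No source used here says how reads that match both were counted, so the separate values of Acot1 and Acot2 are uncertain. The stretch with the most differences within 60 bases shows where a read can tell them apart, with the 13 differing bases in capitals, coding bases 823 to 882 of Acot1 and 946 to 1005 of Acot2, both 5′ to 3′.
Acot1: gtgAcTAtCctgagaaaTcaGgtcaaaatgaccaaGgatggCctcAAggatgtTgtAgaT
Acot2: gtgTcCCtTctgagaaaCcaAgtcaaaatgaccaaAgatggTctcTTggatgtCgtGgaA

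The carnitine shuttle moves long-chain acyl groups across the mitochondrial membranes. Cpt1a, the malonyl-CoA-sensitive enzyme of the outer membrane that sets the rate of entry, was at 31.9, 38.6, 41.0 and 42.4 CPM in controls and 54.1, 136, 119.7, 69.1 and 85.1 CPM in mutants. All 5 mutants were above all controls, mutants 2 and 3 most, and the log2 fold change was 1.27 (SE 0.27, adjusted p = 0.00836 in edgeR) and 0.79 without mutants 2 and 3 (adjusted p = 0.0212). Slc25a20, the carrier that exchanges acylcarnitine for carnitine at the inner membrane, rose from 29.6 ± 3.32 to 53.1 ± 7.09 CPM (SD, n = 4 and 5), a log2 fold change of 0.84 (SE 0.15, adjusted p = 0.00398 in edgeR). Cpt2, which returns the acyl group to coenzyme A inside, did not overlap between groups (65.6 to 80.7 CPM in controls, 82.7 to 144 CPM in mutants) but missed the threshold (log2 fold change 0.47, adjusted p = 0.071 in edgeR). Cpt1c, a brain-type relative of the endoplasmic reticulum, was at 4.37, 2.78, 7.14 and 9.05 CPM in controls and 4.36, 2.43, 1.37, 2.93 and 3.21 CPM in mutants. The Cpt1c ranges overlapped (log2 fold change -1.03, SE 0.41, adjusted p = 0.0792 in edgeR), and the adjusted p was 0.0367 without control 2 and 0.0492 without mutant 1.

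In mitochondrial beta-oxidation, 8 of the 10 genes rose. The 4 acyl-CoA dehydrogenases catalyse the first step for chains of different length, and all of them rose: Acads (short chains) by a log2 fold change of 1.46, Acadl (long chains) by 1.43, Acadm (medium chains) by 0.99 and Acadvl (very long chains) by 0.69, with edgeR adjusted p of 0.0057 to 0.00857. In these genes the groups did not overlap. Acads, for example, ran from 7.02 to 18.5 CPM in controls and from 25.8 to 43.5 CPM in mutants. Acadl was lowest among the mutants in mutant 1, at 45.3 CPM against 93.7 to 121 CPM in the others, and 39.2 CPM in the highest control. Without mutants 2 and 3 the adjusted p of Acadvl was 0.0653, while those of Acads, Acadl and Acadm stayed between 0.0236 and 0.0287.

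Later steps of the mitochondrial spiral were less even. Acaa2, the thiolase that releases acetyl-CoA, rose most in the spiral, from 26.9 ± 3.71 to 95.3 ± 33.5 CPM (SD, n = 4 and 5; log2 fold change 1.82, SE 0.28, adjusted p = 0.00272 in edgeR). Its 4 controls lay at 22 to 31.0 CPM and its 5 mutants at 49.2 to 132 CPM, without overlap. Decr1, which prepares polyunsaturated chains for oxidation, rose by a log2 fold change of 1.45 (adjusted p = 0.00667 in edgeR), and Eci1, an isomerase for unsaturated chains, by 0.86 (adjusted p = 0.0345). The groups overlapped in Eci1, which was at 21.7 to 36.6 CPM in controls and 33.9 to 72.9 CPM in mutants, and its adjusted p was 0.165 without mutants 2 and 3.

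The trifunctional protein, which handles long chains, is built from Hadha and Hadhb, which lie head to head on chromosome 5 (30118304 to 30155162, minus strand, and 30155248 to 30184593, plus strand). Hadha rose from 111 ± 13.1 to 209 ± 46.3 CPM (SD, n = 4 and 5; log2 fold change 0.92, SE 0.19, adjusted p = 0.0074 in edgeR). Hadhb was at 219 ± 17.2 CPM in controls and 319 ± 94.6 CPM in mutants, with mutant 1 at 198 CPM inside the control range of 197 to 239 CPM, and its log2 fold change of 0.54 (SE 0.22) had an adjusted p of 0.0816 (0.0206 without mutant 1). The difference between these 2 changes was not tested. Hadh, the short-chain hydroxyacyl-CoA dehydrogenase that is abundant in beta cells and restrains their insulin secretion, had the opposite sign. It was at 172 to 244 CPM in controls and 131 to 195 CPM in mutants, overlapping in mutant 5 (log2 fold change -0.41, SE 0.17, adjusted p = 0.0796 in edgeR), and DESeq2 called it lower (adjusted p = 0.0195), as did edgeR without mutant 5 (adjusted p = 0.0467) and with RLE scaling (adjusted p = 0.037).

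Peroxisomes shorten very long chains before mitochondria finish them, and their 3 genes rose. Ehhadh, the bifunctional enzyme and a classic PPAR target, went from 2.78 to 3.69 CPM in controls to 5.45 to 13.7 CPM in mutants (log2 fold change 1.58, SE 0.29, adjusted p = 0.00487 in edgeR). Acaa1a, the peroxisomal thiolase, rose by a log2 fold change of 1.14 (adjusted p = 0.00864) and Eci2, a peroxisomal isomerase, by 0.69 (adjusted p = 0.0265). Ehhadh and Acaa1a did not overlap between groups, while mutant 1 of Eci2 lay at 52.6 CPM below control 2 at 60.7 CPM, and without mutants 2 and 3 the adjusted p of Eci2 was 0.136. The coding sequence of Acaa1a is 96.5% identical to that of Acaa1b, and 34.0% of its 50-base windows occur in that transcript, so its reads may be shared. Electrons from the dehydrogenases pass through the electron transfer flavoprotein, made of Etfa and Etfb, to its oxidoreductase Etfdh. Etfdh rose (60.6 to 77.1 CPM in controls and 93.8 to 143 CPM in mutants; log2 fold change 0.79, SE 0.15, adjusted p = 0.00623 in edgeR). Etfa and Etfb had log2 fold changes of 0.60 and 0.54 with adjusted p of 0.141 and 0.148. In both, control 2 was the highest control, at 239 CPM for Etfa and 176 CPM for Etfb, above mutants 1, 4 and 5.

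All 6 genes of lipid droplets and lipolysis rose. Plin2, the perilipin that coats droplets in most cells outside fat (chromosome 4, 86648386 to 86670060, minus strand), was at 106, 104, 208 and 155 CPM in controls and 467, 481, 477, 913 and 596 CPM in mutants. The lowest mutant was more than the highest control by a wide margin, mutants 2 and 3 were like mutant 1, and mutant 4 was highest. The log2 fold change was 2.03 (SE 0.29, adjusted p = 0.00244 in edgeR), and it was as large without mutants 2 and 3 (2.13, adjusted p = 0.00472) and in the fit with the endocrine score (2.22, adjusted p = 0.0199). Per kilobase of exon Plin2 had the highest mean level of the 50 genes in mutants, 311 CPM, against 76 CPM in controls.

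Plin3, a perilipin that moves from the cytosol to new droplets, was at 26.7, 29.0, 56.6 and 40.7 CPM in controls and 104, 174, 171, 114 and 117 CPM in mutants, without overlap (log2 fold change 1.83, SE 0.27, adjusted p = 0.00253 in edgeR). Plin5, the perilipin of oxidative tissues that ties droplets to mitochondria, had few counts, 2, 3, 5 and 11 in controls and 9, 48, 25, 25 and 20 in mutants. Mutant 1 of Plin5, at 1.09 CPM, lay below control 4 at 1.23 CPM, and the log2 fold change was 2.42 (SE 0.59, adjusted p = 0.0138 in edgeR) and 1.83 without mutants 2 and 3 (adjusted p = 0.0552). Pnpla2, the adipose triglyceride lipase that takes the first fatty acid from triglyceride, rose from 18.5 ± 5.01 to 47.9 ± 5.12 CPM (SD, n = 4 and 5; log2 fold change 1.37, SE 0.19, adjusted p = 0.00232 in edgeR). Its 5 mutants were close together, from 40.4 to 53.3 CPM, and above the controls at 13.6 to 25.3 CPM.

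Lipe, the hormone-sensitive lipase of the next step, was at 0.820, 0.439, 1.05 and 2.24 CPM in controls and 2.91, 8.36, 5.61, 4.97 and 4.15 CPM in mutants. These groups did not overlap, though the lowest control rested on 3 counts (log2 fold change 2.15, SE 0.49, adjusted p = 0.0109 in edgeR). Angptl4, a secreted inhibitor of lipoprotein lipase and a well known PPAR target (chromosome 17, 33773750 to 33781830, minus strand), was at 4.65, 2.49, 7.14 and 7.6 CPM in controls and 14.7, 76.3, 61.9, 65.5 and 41.9 CPM in mutants. All mutants were above all controls, with mutant 1 nearest to them. The log2 fold change of Angptl4 was 3.23 (SE 0.50, adjusted p = 0.00292 in edgeR), 2.80 without mutants 2 and 3 (adjusted p = 0.0085) and 2.45 with the endocrine score (adjusted p = 0.0461).

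**Figure D3:**
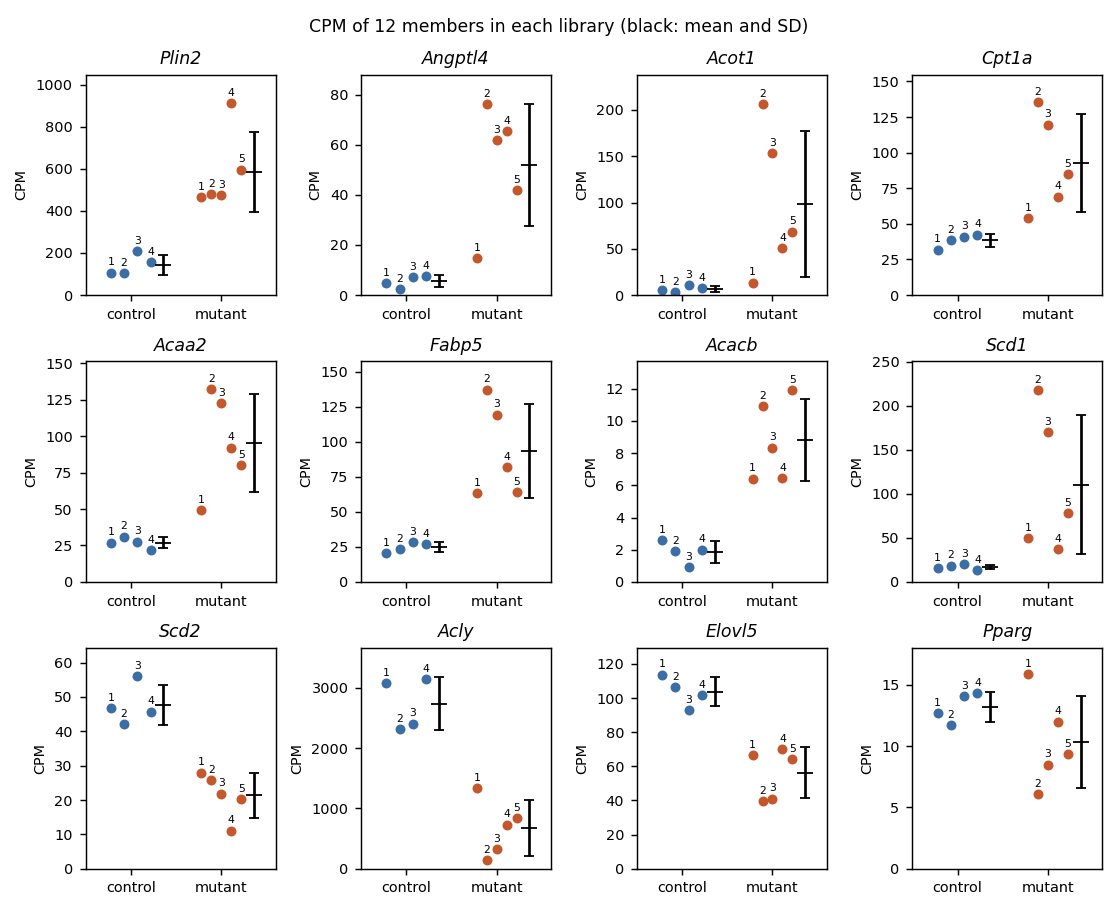
CPM in each library for 12 of the genes, 4 controls and 5 mutants, with each point numbered by its replicate and the mean and SD in black; each panel has its own axis. Plin2 is at 104 to 208 CPM in controls and 467 to 913 CPM in mutants, Acly falls from 2317 to 3147 CPM in controls to 149 to 1340.4 CPM in mutants, and Pparg overlaps between the groups.

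Of the 3 uptake and binding proteins 1 rose. Fabp5, a cytosolic fatty acid carrier that delivers ligands to Ppard, was at 20.5, 23.3, 28.2 and 27.0 CPM in controls and 63.3, 137, 119, 81.8 and 63.8 CPM in mutants. All 5 mutants were above all controls (log2 fold change 1.91, SE 0.27, adjusted p = 0.00232 in edgeR), and the change was 1.18 with the endocrine score (adjusted p = 0.0244). Fabp4, the carrier of adipocytes, macrophages and capillaries, was at 4.65 to 14.8 CPM in controls and 0.674 to 7.63 CPM in mutants (log2 fold change -1.14, adjusted p = 0.148 in edgeR), lowest in mutant 2. Cd36, the surface transporter of fatty acids, was at 4.54 to 6.97 CPM in controls, at 20.2 CPM in mutant 1 and at 0.809 to 3.94 CPM in the other mutants. Mutant 1 was thus above all controls and the other 4 below them, and the log2 fold change of 0.10 (SE 0.77, adjusted p = 0.929 in edgeR) became -1.21 without mutant 1.

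The long-chain acyl-CoA synthetases activate fatty acids for their different fates. Acsl5, of mitochondria and endoplasmic reticulum, rose from 122 ± 15.1 to 189 ± 32.5 CPM (SD, n = 4 and 5; log2 fold change 0.63, SE 0.16, adjusted p = 0.0165 in edgeR), and Acsl1, the main form of liver, fat and heart, from 14.2 ± 2.25 to 24.9 ± 8.28 CPM (log2 fold change 0.81, SE 0.25, adjusted p = 0.033). Acsl3, a form linked to the growth of lipid droplets, was at 19.3, 15.1, 21.3 and 17.2 CPM in controls and 13.6, 11.5, 7.89, 11.1 and 14.0 CPM in mutants. Every mutant of Acsl3 was below every control, by a small step (log2 fold change -0.65, SE 0.20, adjusted p = 0.0337 in edgeR). Without mutants 2 and 3 the adjusted p was 0.0569 for Acsl5, 0.217 for Acsl1 and 0.0933 for Acsl3. Acsl4, which prefers arachidonic acid, had no call (log2 fold change -0.26, adjusted p = 0.6 in edgeR), with control 2 at 241 CPM against 73.7 to 85.6 CPM in the other controls and 65.6 to 131 CPM in mutants.

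In fatty acid synthesis, Acly was the most abundant of the 50 genes per kilobase in controls, at 594 CPM, and fell to 147 CPM in mutants. Acly, the ATP citrate lyase that makes cytosolic acetyl-CoA (chromosome 11, 100476353 to 100528000, minus strand), was at 3079, 2317, 2408 and 3147 CPM in controls and 1340.4, 149, 331, 734 and 841 CPM in mutants. No mutant reached the controls, and mutants 2 and 3 were lowest, the same libraries as for the endocrine genes. The log2 fold change was -2.01 (SE 0.52, adjusted p = 0.0175 in edgeR), -1.55 without mutants 2 and 3 (adjusted p = 0.0085) and -0.66 in the fit with the endocrine score (adjusted p = 0.199).

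Acetyl-CoA carboxylase makes malonyl-CoA, in the cytosol by Acaca for synthesis and at the mitochondrial surface by Acacb, where it restrains Cpt1. Acacb (chromosome 5, 114146535 to 114250761, plus strand) was at 2.60, 1.90, 0.937 and 2.01 CPM in controls and 6.42, 10.9, 8.34, 6.44 and 11.9 CPM in mutants. The 5 mutants were above the 4 controls (log2 fold change 2.24, SE 0.35, adjusted p = 0.00293 in edgeR), and the change was similar without mutants 2 and 3 (2.09, adjusted p = 0.0107) and with the endocrine score (2.02, adjusted p = 0.0431). Acaca was at 5.06, 4.98, 4.92 and 6.37 CPM in controls and 5.57, 2.97, 3.64, 3.07 and 5.22 CPM in mutants, overlapping (log2 fold change -0.38, SE 0.27, adjusted p = 0.297 in edgeR). Fasn, the fatty acid synthase, was at 9.84 to 12.9 CPM in controls and 5.41 to 13.8 CPM in mutants (log2 fold change -0.14, adjusted p = 0.698 in edgeR).

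Desaturases and elongases change the chains once made. Scd1 and Scd2, which put the first double bond into saturated chains, moved in opposite directions. Scd1 (chromosome 19, 44394455 to 44407879, minus strand) was at 16, 18.4, 19.8 and 13.4 CPM in controls and 49.8, 217, 169.6, 37.2 and 78.0 CPM in mutants. Scd2 (chromosome 19, 44293674 to 44306864, plus strand) was at 46.8, 42.1, 56.1 and 45.7 CPM in controls and 28.0, 25.7, 21.8, 11.1 and 20.2 CPM in mutants. Neither gene overlapped between the groups, and in Scd1 mutants 2 and 3 were highest while in Scd2 mutant 4 was lowest. Scd1 rose by a log2 fold change of 2.71 (SE 0.53, adjusted p = 0.00623 in edgeR; 1.65 without mutants 2 and 3, adjusted p = 0.00566; 1.15 with the endocrine score, adjusted p = 0.126). Scd2 changed by -1.16 (SE 0.24, adjusted p = 0.00751; -1.32 without mutants 2 and 3, adjusted p = 0.0168; -1.35 with the endocrine score, adjusted p = 0.0552). Per kilobase of exon the mean of Scd2 was the higher of the pair in controls, 8.74 against 3.5 CPM, and the mean of Scd1 in mutants, 22.8 against 3.92 CPM.

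The coding sequences of Scd1 and Scd2 are 90.3% identical, but 3.03% of the 50-base windows of Scd1 and 2.68% of those of Scd2 occur in the other transcript, a smaller share than in Acot1 and Acot2. The stretch with the most differences, coding bases 79 to 138 of Scd1 and 88 to 147 of Scd2, is shown 5′ to 3′ to let the pair be compared with Acot1 and Acot2, with the 24 differing bases in capitals.
Scd1: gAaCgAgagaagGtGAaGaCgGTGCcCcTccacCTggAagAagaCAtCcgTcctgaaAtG
Scd2: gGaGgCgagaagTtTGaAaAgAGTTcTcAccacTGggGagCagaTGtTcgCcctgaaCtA

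Elovl5, which lengthens polyunsaturated chains, was at 114, 107, 93.1 and 102 CPM in controls and 66.5, 39.6, 41.1, 70.2 and 64.4 CPM in mutants. The mutants lay below the controls in every library (log2 fold change -0.88, SE 0.20, adjusted p = 0.0107 in edgeR). The other members of this group did not pass the test. Elovl6, which lengthens palmitate, was at 18 to 27.2 CPM in controls and 4.58 to 29.8 CPM in mutants, lowest in mutants 2 and 3 (log2 fold change -0.56, adjusted p = 0.367 in edgeR). The polyunsaturated desaturases Fads1 and Fads2 had log2 fold changes of -0.30 (adjusted p = 0.19) and 1.19 (adjusted p = 0.14), and Fads2 ran from 1.32 to 7.85 CPM in controls and 4.1 to 13.5 CPM in mutants. Control 3 was the highest control of Fads2, and without it the log2 fold change was 1.98 and passed the test (adjusted p = 0.0295 in edgeR).

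A ratio of 2 genes within a library hardly depends on how libraries are scaled, and 6 such ratios were compared between groups by exact two-sided permutation tests, with p-values adjusted over the 6. The smallest p the 9 libraries allow is 0.00794. The log2 ratio of Scd1 to Scd2 was -1.53, -1.18, -1.49 and -1.75 in controls and 0.83, 3.06, 2.94, 1.72 and 1.94 in mutants, so Scd2 led in every control and Scd1 in every mutant. The difference of 3.58 had an exact p of 0.00794 (adjusted p = 0.0238). The log2 ratio of Acaca to Acacb was 0.90, 1.27, 2.11 and 1.54 in controls and -0.20, -1.79, -1.14, -1.01 and -1.15 in mutants. The sign differed between the groups in all 9 libraries, a difference of -2.51 with an exact p of 0.00794 (adjusted p = 0.0238).

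The log2 ratio of Cpt1a to Cpt1c was 2.79, 3.68, 2.48 and 2.19 in controls and 3.56, 5.66, 6.20, 4.44 and 4.62 in mutants. In 4 of 5 mutants it was above all controls (difference 2.11, exact p = 0.0238, adjusted p = 0.0357). The log2 ratio of Acot1 to Acot2 was -1.13, -4.30, -0.61 and -0.69 in controls and -0.78, 0.38, -0.10, -0.28 and -0.26 in mutants. It too was above all controls in 4 of 5 mutants (difference 1.48, exact p = 0.0238, adjusted p = 0.0357), but control 2 decided much of it, since without control 2 the difference was 0.61 (exact p = 0.107, adjusted p = 0.161). Ppara to Pparg differed by 1.17 (exact p = 0.167, adjusted p = 0.2) and Plin2 to Plin5 by 0.03 (exact p = 0.976, adjusted p = 0.976), and both ratios overlapped between the groups. In controls the log2 ratio of Plin2 to Plin5 was 6.70 to 7.94 and in mutants 6.16 to 8.43.

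**Figure D4:**
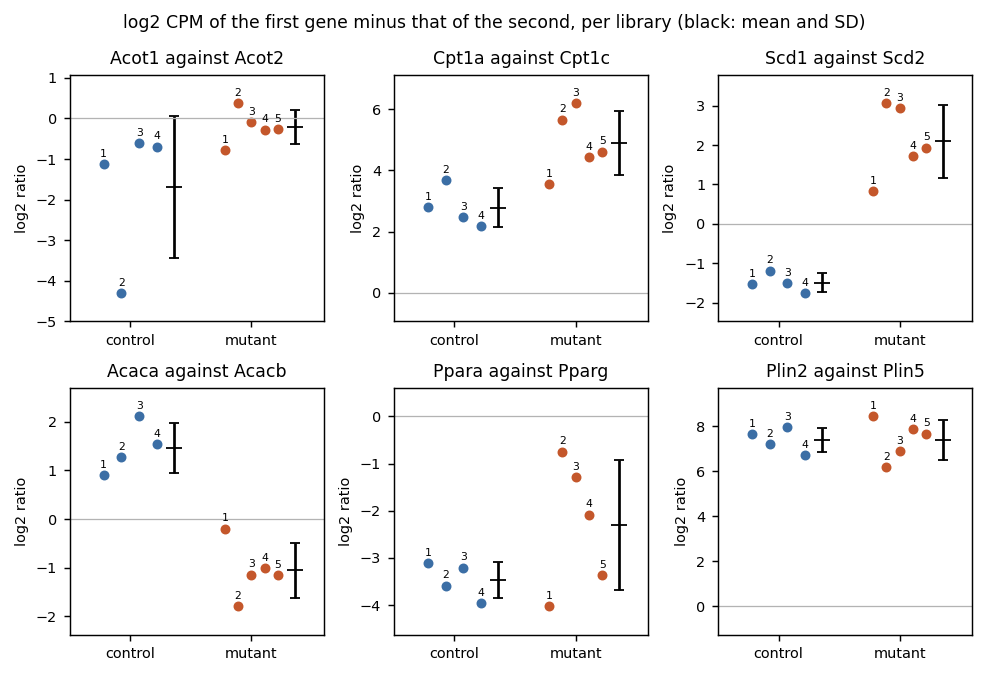
Log2 ratio of 2 related genes in each library for 6 pairs, with 4 controls and 5 mutants; points are libraries and the line at 0 marks equal CPM. Scd1 to Scd2 and Acaca to Acacb do not overlap between the groups, while Plin2 to Plin5 overlaps, from 6.70 to 7.94 in controls and 6.16 to 8.43 in mutants.

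Further genes of the same pathways were read from 10 lists of 157 symbols in all, of which 124 could be tested. Of these 45 rose and 13 fell, against 20.6% and 11.8% of all genes tested, so the number that fell was near the share over all genes. The median log2 fold change was 0.33 against 0.04 over all genes. Without mutants 2 and 3, 28 rose and 12 fell, against 10.8% and 9.78% of all genes. Without control 2, 29 rose, and 2004 of all 12699 genes tested. With the endocrine score 9 rose and 0 fell, against 3.27% and 0.411% of all genes. Of the genes named below, Acot7, Acot9, Acad9, Mgll, Cidea, Elovl1 and Elovl7 were called in the fit with the endocrine score and the others were not. Counts of single lists are small and are given as a description.

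In ketone body metabolism 2 of 6 genes rose and 2 fell. Bdh2, a dehydrogenase, rose by 2.19 (adjusted p = 0.0361 in edgeR), which rested on mutants 2 and 3 (0.69 without them, adjusted p = 0.273), and Acat1, the mitochondrial acetoacetyl-CoA thiolase, changed by -0.56 (adjusted p = 0.0134).

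Of 9 tested PPAR targets outside beta-oxidation 4 rose and 1 fell. Mgll, the lipase that finishes the breakdown of triglyceride, was at 8.20, 6.88, 8.08 and 7.15 CPM in controls and 32.0, 60.3, 59.3, 73.1 and 66.1 CPM in mutants. The groups did not overlap, with mutant 1 the lowest mutant, and the log2 fold change of 2.94 (SE 0.24, adjusted p = 0.00114 in edgeR) was 2.85 without mutants 2 and 3 (adjusted p = 0.00211) and 2.83 with the endocrine score (adjusted p = 0.0088). Cidea, a lipid droplet protein, rose by 2.44 (adjusted p = 0.00466 in edgeR) and the hormone Fgf21 by 2.41 (adjusted p = 0.00918).

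Of 16 further peroxisomal genes 6 rose and 2 fell: Crot, which makes medium-chain acylcarnitines, rose by a log2 fold change of 1.15 (adjusted p = 0.00261 in edgeR), Hsd17b4, the D-bifunctional protein, by 1.14 (adjusted p = 0.00267) and Ech1, a dienoyl-CoA isomerase, by 2.25 (adjusted p = 0.00639). Of 16 further mitochondrial genes 7 rose and 1 fell, with Acad9 at 0.70, Hsd17b10 at 1.37 and Crat, which makes acetylcarnitine, at 0.93 (adjusted p = 0.00919 to 0.0119 in edgeR). Without mutants 2 and 3 Hsd17b10 was at 0.84 (adjusted p = 0.0284) and Crat at 0.74 (adjusted p = 0.0574), and with the endocrine score they were at 0.57 (adjusted p = 0.306) and 0.60 (adjusted p = 0.237). Of 7 further thioesterases Acot9 rose by 1.48 (adjusted p = 0.00243), Acot7 by 2.02 (adjusted p = 0.00415) and Acot11 changed by -1.68 (adjusted p = 0.0459). Acot7 and Acot9 kept their calls with the endocrine score, at 2.18 (adjusted p = 0.0358) and 1.42 (adjusted p = 0.0348), while Acot11 was at -0.21 (adjusted p = 0.855).

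Of 12 tested genes of a list of PPAR partners, coregulators and other nuclear receptors, 5 rose and 1 fell. The liver X receptors, which are not PPAR partners, rose: Nr1h2 by a log2 fold change of 1.1 (adjusted p = 0.00379 in edgeR) and Nr1h3 by 1.36 (adjusted p = 0.00758). Without mutants 2 and 3 Nr1h3 was at 0.91 (adjusted p = 0.0316). The mediator subunit Med1 rose by 0.48 (adjusted p = 0.0187), and by 0.39 without mutants 2 and 3 (adjusted p = 0.134). Named after their values were seen, the retinoid X receptors Rxra and Rxrb rose by 0.63 (adjusted p = 0.0328) and 1.16 (adjusted p = 0.0462). Without mutants 2 and 3 their adjusted p was 0.158 and 0.316. The coregulator Ncoa1, also named so, fell by a log2 fold change of -1.62 (adjusted p = 0.0265), with control 2 highest at 174 CPM. Of 14 genes of glycerolipid synthesis 7 rose and 1 fell: Dgat1, which makes triglyceride, by 1.12 (adjusted p = 0.00807), Lclat1, a lysocardiolipin acyltransferase, by 0.82 (adjusted p = 0.0045) and Lpin1, a phosphatidate phosphatase, by -1.56 (adjusted p = 0.00816). Lpin1 was at 76.1 CPM in control 2, 26.7 to 28.7 CPM in the other controls and 11.2 to 16.3 CPM in mutants. Its relatives Lpin2 and Lpin3, named after their values were seen, rose by 1.48 (adjusted p = 0.00898) and 1.96 (adjusted p = 0.0154). Of 14 further genes of lipolysis and transport 3 rose, near the 20.6% of all genes, and 1 fell, with Dbi, the acyl-CoA binding protein, at 1.34 (adjusted p = 0.00989), the lipase Lipc at 1.52 (adjusted p = 0.0107; 1.03 without mutants 2 and 3, adjusted p = 0.0522) and Fabp3, a carrier of heart muscle, at -2.63 (adjusted p = 0.0116).

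Of 17 lipogenic regulators and partners 3 rose and 2 fell: Mecr, of mitochondrial fatty acid synthesis, by a log2 fold change of 1.14 (adjusted p = 0.00959 in edgeR), the AMP-activated kinase subunit Prkaa2 by 0.90 (adjusted p = 0.0119) and Thrsp, a lipogenic protein of liver and fat, by -2.35 (adjusted p = 0.0265; -0.24 with the endocrine score, adjusted p = 0.937). These counts are near the shares over all genes, 20.6% higher and 11.8% lower. Of 13 further desaturases and elongases 6 rose and 1 fell. Elovl7, an elongase of saturated chains, was at 14.9 to 24.1 CPM in controls and 48.1 to 67.7 CPM in mutants (log2 fold change 1.48, SE 0.18, adjusted p = 0.00152 in edgeR; 1.61 with the endocrine score, adjusted p = 0.0141). Elovl1, for very long chains, rose by 1.16 (adjusted p = 0.00509), and Ptpla, a dehydratase of elongation also called Hacd1, by 1.44 (adjusted p = 0.00503). Elovl2, of the same list, changed by -1.67 (adjusted p = 0.0245; -0.29 with the endocrine score, adjusted p = 0.603) and is named here after its values were seen, beside Elovl5, which also fell.

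PPARs with a retinoid X receptor bind a direct repeat of AGGTCA with a spacer of 1 base. The half-site AGGNCA, repeated in the same direction with 1 free base between the copies, was searched on both strands in the 250 bases before the start of each gene in the RefSeq promoter table (GRCm38.p6), which held 42 of the 50 genes. It occurred in 0 of these 42 and in 108 of all 27025 promoters (0.400%), and the stricter repeat of AGGTCA, a subset of the first, in 0 of 42 and in 11 promoters (0.0407%). These letters were absent from this window, which says nothing of sites farther away or of other spellings. With a match in 0.400% of all promoters, most sets of 42 genes would hold 0, so the count does not set these genes apart. The promoter table lacked Decr1, Scd2, Angptl4, Fabp4, Fabp5, Acaa2, Fads1 and Scd1.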

How the data were processed

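Islet RNA was sequenced in 4 control and 5 mutant libraries, grouped by sample title and genotype label. Per the labels' protocols, RNA came from a small-scale column kit and the libraries from a NEBNext kit for little input. Each value is a raw count for a gene symbol in a library, as the authors deposited it. Among the tools in the submitters' processing notes are STAR, RSEM, DESeq2 and R 4.1.0, with the build mm10, none with a role. The aligner, the counter, the annotation and the use of strand for these counts are not given in the sources used here. Reads shared by close paralogs or by genes that overlap, on either strand, may therefore have been assigned to one or the other.

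Mutant was compared with control over all genes with edgeR 4.0.16 in R 4.3.3. After filterByExpr (12402 genes) and TMM scaling, the two-sided quasi-likelihood test was adjusted by Benjamini-Hochberg, with a threshold of 0.05. Standard errors are the absolute log2 fold change over the root of the F statistic. CPM values were scaled by the TMM factors, with 2 as the prior count on the log2 scale. Levels per kilobase used exon lengths of GENCODE M21, which also gave positions and coding sequences on GRCm38. No 2 libraries of a group were alike within sampling noise. On simulated data for mutant against control (12143 genes), the fit called 13% of the genes with a 2-fold change. It called 78% of those with a 4-fold change, and 5.21% of its calls were false. Whether these rates hold for the islet libraries was not tested.

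The 50 genes, the lists and the tests were chosen with earlier results of these data known. All 157 further pathway symbols were found, 7 of them under a synonym. Values in every library are given for up to 8 genes that rose and 8 that fell without overlap, by size of change, for the PPARs and Ppargc1a, and for the paired genes. Of each further list, up to 3 genes of lowest p past the threshold are named, and 1 gene that this rule gives is not reported here. Alternatives were RLE scaling, TMM factors without hormone genes or without hormone and acinar genes, no filter, a filter of CPM of at least 1 in 4 libraries, DESeq2 1.42.0, voom of limma 3.58.1 with quality weights, a covariate (the acinar or the endocrine score), a replicate block, each library left out, and mutants 2 and 3 left out together. Ratios were also computed with a prior count of 0.5.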

Additional observations from a re-analysis of the deposited data

Results flagged for a closer look

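In 98 groups of log2 CPM values, one for each tested gene and genotype, the highest or lowest library was compared with the others by Dixon's criterion, which chance alone meets in about 1 in 20 groups, and 6 groups met it. Control 2 did so in 3 genes: it was the highest control for Acsl4, at 7.92 against 6.21 to 6.42 in the other controls, the highest for Eci2, at 5.93 against 5.64 to 5.65, and the lowest for Acsl5, at 6.64 against 6.98 to 7.04. Control 4 was the highest control for Acaca, at 2.73 against 2.37 to 2.41. Among mutants, mutant 4 was the highest for Cpt2, at 7.17 against 6.37 to 6.56, and mutant 1 the lowest for Acadl, at 5.51 against 6.55 to 6.92.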

How the results depend on the processing

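Of the 49 tested genes, 42 to 49 kept their direction and their side of the threshold in each of the fits other than those with a marker score as covariate. Across all alternatives except those 2, 20 to 29 of the genes were called higher (26 as reported) and 3 to 6 lower (4 as reported). With 1 library left out the counts were 22 to 28 and 3 to 5. Those fits called 1579 to 2702 of all 12198 to 12699 genes tested higher, and 699 to 1865 lower. Of the 30 genes called, 25 were called in all 9 fits that left out 1 library. The others were Eci1 (lost without control 1, 3 or 4 or mutant 2 or 3, adjusted p up to 0.0909 in edgeR), Eci2 (without control 1, 3 or 4 or mutant 2, 3 or 4, up to 0.0739), Acsl1 (without any 1 control or mutant 2 or 3, up to 0.11), Acsl3 (without control 1, 3 or 4 or mutant 3 or 4, up to 0.0854) and Acsl5 (without control 2 or mutant 3 or 4, up to 0.0564). RLE scaling moved the median log2 fold change of all genes by -0.10, DESeq2 by -0.15 and the fit without a filter by -0.11. DESeq2 also called Acot2 higher and Cpt1c and Hadh lower.

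With the endocrine score 6 genes were called higher and 0 lower, and of the further pathway genes 9 and 0. Log2 fold changes that turned were Pparg 0.24, Hadhb -0.020, Etfb -0.0094, Fabp4 0.14, Acaca 0.014, Fasn 0.063 and Elovl6 0.67. With the acinar score, which nearly repeats the group, 0 genes were called in any of these counts, and 36 turned: Ppara -4.67, Pparg 0.98, Ppargc1a 0.49, Acot1 -1.09, Acot2 -2.89, Cpt1a -0.45, Cpt1c 1.1, Cpt2 -0.35, Acadl -0.34, Acadm -0.64, Acadvl -0.12, Hadh 0.014, Hadha -0.27, Hadhb -1.32, Acaa2 -0.59, Eci1 -1.44, Decr1 -0.84, Acaa1a -0.011, Ehhadh -0.074, Eci2 -0.83, Etfa -1.66, Etfb -1.50, Etfdh -0.24, Plin5 -0.81, Angptl4 -0.013, Fabp4 1.26, Fabp5 -0.28, Acsl1 -0.17, Acsl3 0.34, Acly 1.71, Acaca 1.61, Fasn 1.57, Scd1 -0.61, Elovl5 0.13, Elovl6 2.48 and Fads2 -1.92. Other changes of sign concerned Cd36 (-0.0044 in DESeq2, -0.73 in limma-voom, -1.21 to 0.33 with 1 library left out) and Acsl4 (0.11 in limma-voom, -0.44 to 0.23 with 1 library left out). The cause was not tested.

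Further pathway genes called higher numbered 28 without mutants 2 and 3 and 29 to 47 with 1 library left out, lowest without control 2. Those called lower numbered 21 in DESeq2 (20 of them among the 124 genes that edgeR tested) and 20 in limma-voom. With 1 library left out they numbered 7 to 17, with 7 without control 1 and 8 without mutant 3 (13 as reported). The counts over all genes moved too. Of all genes 17.8% were called lower in DESeq2 and 18.5% in limma-voom. Without control 1 it was 699 of 12634 genes, and without mutant 3 it was 900 of 12282. Without control 2, 2004 of 12699 genes were called higher.

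Same-numbered control and mutant libraries correlated at 0.05, -0.02, 0.18 and -0.05 in their deviations, and none correlated best with its own number. The correlations thus gave no sign that the numbers pair the libraries. They cannot exclude it, since the mutants differ widely among themselves. With the replicate number as a block, 25 genes were called higher and 3 lower, and 4 of the further pathway genes were called lower. In that fit 13.4% of all genes were called higher and 6.24% lower. Cd36 stood at -0.69 and Acsl4 at 0.034. The ratio differences under the block were 1.49 for Acot1 to Acot2, 2.18 for Cpt1a to Cpt1c, 3.63 for Scd1 to Scd2, -2.49 for Acaca to Acacb and -0.038 for Plin2 to Plin5, where the smallest exact p is 0.125.

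Without mutants 2 and 3, where the smallest exact p is 0.0286, the first 4 differences were 1.25, 1.42, 2.98 and -2.24 and none passed after adjustment. With 1 library left out they ran from 0.61 to 1.84 for Acot1 to Acot2, 1.78 to 2.45 for Cpt1a to Cpt1c, 3.34 to 3.90 for Scd1 to Scd2, -2.73 to -2.29 for Acaca to Acacb, 0.78 to 1.6 for Ppara to Pparg and -0.23 to 0.34 for Plin2 to Plin5, which was -0.30 with a prior count of 0.5. Depth limits the values of Plin5, Lipe and Acacb, which rest on few counts in controls.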
